A study of Mus musculus with 12 samples.

Results

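Solute carrier (SLC) genes encode membrane proteins that move amino acids, sugars, nucleotides, ions, metals and vitamins across the plasma membrane and the membranes of organelles. The genes described here are those whose symbol starts with Slc and a number and whose mean FPKM over the wild-type (WT) columns of day 14 and day 21 was at least 1. FPKM scales the sequenced fragments of a gene by its transcript length and by the depth of the library. Of 355 such symbols among the 23235 symbols of the table, 170 reached that level and 185 did not. The symbol rule also takes 4 genes that are not carriers: Slc7a6os, Slc4a1ap, Slc9a3r1 and Slc9a3r2, whose names come from a neighbour or a binding partner. The WT levels chose the members, so those levels are a description and carry no test.

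The oocytes came from ovaries of WT mice and of mice labelled MTR4 (Mtr4-null in the design text), at day 14, when the labels call them growing germinal vesicle oocytes, and at day 21, when they call them germinal vesicle oocytes. MTR4 is an RNA helicase that unwinds nuclear transcripts and hands them to the RNA exosome, which degrades them. The labels list 12 samples, 3 in each of 4 groups, each with 10 oocytes lysed directly and copied from poly(A) RNA by Smart-seq2, while the design text speaks of duplicates. The allele, the promoter that removes it, the part of the gene lost, the strain and the animals behind each sample are not given in the sources used here. The table holds 1 mean FPKM per gene and group, made by the authors, so no value below has a replicate error and no difference could be tested. A difference is that of log2(FPKM + 1), and genes at least 2-fold apart on that scale, a log2 difference of 1, are called higher or lower. This is a rule of size and not a test, and adding 1 makes the fold of a weakly expressed gene look smaller than it is. Where 2 values of 1 genotype stand together, day 14 precedes day 21, and a pair marked WT and Mtr4-null is of day 21 unless day 14 is named.

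A growing oocyte enlarges many times while coupled to granulosa cells, which pass it pyruvate, amino acids and nucleotides through gap junctions. Its own carriers take up glycine for volume control, cystine for glutathione and zinc, which holds the oocyte in meiotic arrest and is later released at fertilisation. Carriers of the mitochondrial inner membrane, the Slc25 family, link cytosolic nucleotide, phosphate and metabolite pools to oxidative phosphorylation, the main energy source of an oocyte. Nucleotide sugar carriers of the Slc35 family feed the Golgi enzymes that glycosylate secreted proteins, among them the zona pellucida proteins.

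The MTR4 gene, Mtrex, is listed as Skiv2l2 and stood at 27.6 FPKM at day 14 and 26.3 FPKM at day 21 in WT, against 1.57 and 3.86 FPKM in the Mtr4-null groups. These values are 17.6-fold lower at day 14 and 6.799-fold lower at day 21. All 12 oocyte markers examined were at 1 FPKM or more in every group, with a summed FPKM of 22324 and 17041 in WT, against 21889.5 and 13078.5 in the Mtr4-null groups. Of 11 granulosa markers, 5, 5, 5 and 4 reached 1 FPKM in WT day 14, WT day 21, Mtr4-null day 14 and Mtr4-null day 21, none was at 0, and their sums were 27.4, 39.1, 25.7 and 24.8 FPKM. Of 12 markers of theca, stroma, endothelium and blood, 4 to 6 were at 0 in each group, and Pecam1 made up most of sums of 14.1, 21.6, 11.3 and 3.49 FPKM. The part of such cells in any carrier's value was not tested, and in these bulk samples fewer cells of a kind and less RNA per cell cannot be told apart. In the Mtr4-null day 14 column 114 of the 170 values end in repeating decimals, as a mean of 3 rounded numbers does, and so do 109 of WT day 14 and 117 of WT day 21, but none of Mtr4-null day 21. The last column may therefore average fewer libraries, and the differences at day 21 rest on it.

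The promoters of 3 members are shown because they are the carrier genes to which the largest differences and the metal and amino acid results below refer. They span 250 bases before to 50 bases after the annotated start in RefSeq's GRCm38.p6 build, read along the gene from 5′ to 3′, and 139 of the 170 members had such an entry. Slc7a14, a lysosomal member of the cationic amino acid transporter family, lies on the minus strand at chr3:31310270-31310569. Slc30a1, the zinc exporter of the plasma membrane, lies on the plus strand at chr1:191906531-191906830, and capitals mark 2 matches to the metal response element. Slc7a11, the cystine and glutamate exchanger xCT, lies on the minus strand at chr3:50443564-50443863, and capitals mark 2 matches to the amino acid response element.
Slc7a14: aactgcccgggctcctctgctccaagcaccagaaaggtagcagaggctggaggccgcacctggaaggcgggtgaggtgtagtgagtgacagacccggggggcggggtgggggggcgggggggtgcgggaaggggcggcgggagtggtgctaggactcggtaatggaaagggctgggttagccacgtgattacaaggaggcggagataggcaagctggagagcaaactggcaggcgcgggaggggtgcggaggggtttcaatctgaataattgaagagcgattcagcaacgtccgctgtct
Slc30a1: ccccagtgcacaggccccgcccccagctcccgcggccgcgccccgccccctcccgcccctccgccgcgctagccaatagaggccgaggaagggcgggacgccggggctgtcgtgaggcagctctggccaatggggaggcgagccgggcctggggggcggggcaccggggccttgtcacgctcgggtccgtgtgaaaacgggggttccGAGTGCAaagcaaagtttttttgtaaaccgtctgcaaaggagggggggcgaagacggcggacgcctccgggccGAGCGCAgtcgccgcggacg
Slc7a11: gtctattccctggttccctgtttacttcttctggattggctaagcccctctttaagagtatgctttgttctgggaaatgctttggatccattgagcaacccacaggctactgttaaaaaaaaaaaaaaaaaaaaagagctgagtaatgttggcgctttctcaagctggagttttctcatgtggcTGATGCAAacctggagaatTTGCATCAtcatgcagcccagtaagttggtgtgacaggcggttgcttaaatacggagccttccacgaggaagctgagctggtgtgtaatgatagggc
The metal response element, bound by the zinc sensor MTF1, was searched as TGCACNC or TGCGCNC on both strands, and the amino acid response element, bound by ATF4 and its partners, as TGATGNAA. The Slc30a1 matches lie at bases -43 to -37 and 30 to 36, and the Slc7a11 matches at -66 to -59 and -47 to -40, counted from 0 at the annotated start. The metal motif was found in 25.7% of 32851 promoters of 300 bases, in 62 of 180 promoters of members (34.4%) and in 8 of 17 promoters of zinc carriers (47.1%). The amino acid motif was found in 3.97% of all promoters, in 7 of 180 of members (3.89%) and in 4 of 31 of amino acid carriers (12.9%). These count promoters and not genes: the 180 belong to 139 genes, the 17 to 14 and the 31 to 22. The 8 promoters are of Slc30a1, Slc30a2, Slc30a3, Slc30a4, Slc30a5, Slc39a3 and Slc39a11, and the 4 are of Slc15a5, Slc7a7 and Slc7a11. A match is a description of these letters and not a site of binding.

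In WT oocytes the most abundant members were a sugar carrier, a zinc carrier and an adenine nucleotide carrier. Slc45a3, of the sucrose transporter family, stood at 414 and 523 FPKM at day 14 and day 21. Slc30a3, the vesicular zinc carrier ZnT3, stood at 293 and 256 FPKM, and Slc25a5, an ADP/ATP carrier of mitochondria, at 279 and 256 FPKM. These 3 genes held 25.5% and 27.9% of the summed FPKM of the members at the 2 ages. The levels ran from 1.00 to 469 FPKM with a median of 7.95 FPKM, and 122 members had at least 3, 70 at least 10, 31 at least 30 and 5 at least 100 FPKM. Just inside the threshold of 1 FPKM were Slc44a5, Slc5a4b and Slc35f4 at 1.00, 1.02 and 1.02 FPKM, and just outside it were Slc14a2, Slc16a9 and Slc36a1 at 0.993, 0.991 and 0.989 FPKM. In 19 members 1 of the WT columns was itself under 1 FPKM.

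Between genotypes few carriers were 2-fold apart at day 14, and at day 21 more were lower than higher in Mtr4-null oocytes. At day 14, 6 of 170 members were at least 2-fold higher in Mtr4-null oocytes and 3 lower, against 5.24% and 1.68% of all 11160 genes with the same WT level. At day 21, 20 were higher and 41 lower, 11.8% and 24.1% of the members, against 14.9% and 28.3% of all genes. The median log2 difference of the members was 0.07 at day 14 and -0.22 at day 21, beside 0.01 and -0.41 over all genes. The shares of members therefore stood near those of all genes at both ages. Since the level was set on WT alone, carriers that were near 0 in WT oocytes could not be counted as higher.

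At day 14 the direction of the few members counted depends on the scaling, while over all genes higher outnumbered lower under each scaling. With median-of-ratios scaling or with quantile normalization of the 4 columns, 3 members were higher and 4 lower. The higher share of those counted was thus 42.9%, against 66.7% without rescaling. Over all genes, 4.07% were higher and 2.30% lower with median-of-ratios scaling, and 3.64% higher and 2.94% lower with quantile normalization. The all-gene median was then -0.13 and -0.14, against 0.01 without rescaling. The members higher under each of these scalings were Slc7a14, Slc35d2 and Slc9a3r2, and those lower were Slc6a15, Slc10a6, Slc25a13 and Slc15a5. Without rescaling Slc15a5 stood at -0.91 on the log2(FPKM + 1) scale, though its plain FPKM was 2.28-fold lower. At day 21 the scalings kept 19 of the 20 higher members and 36 of the 41 lower ones.

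**Figure D1:**
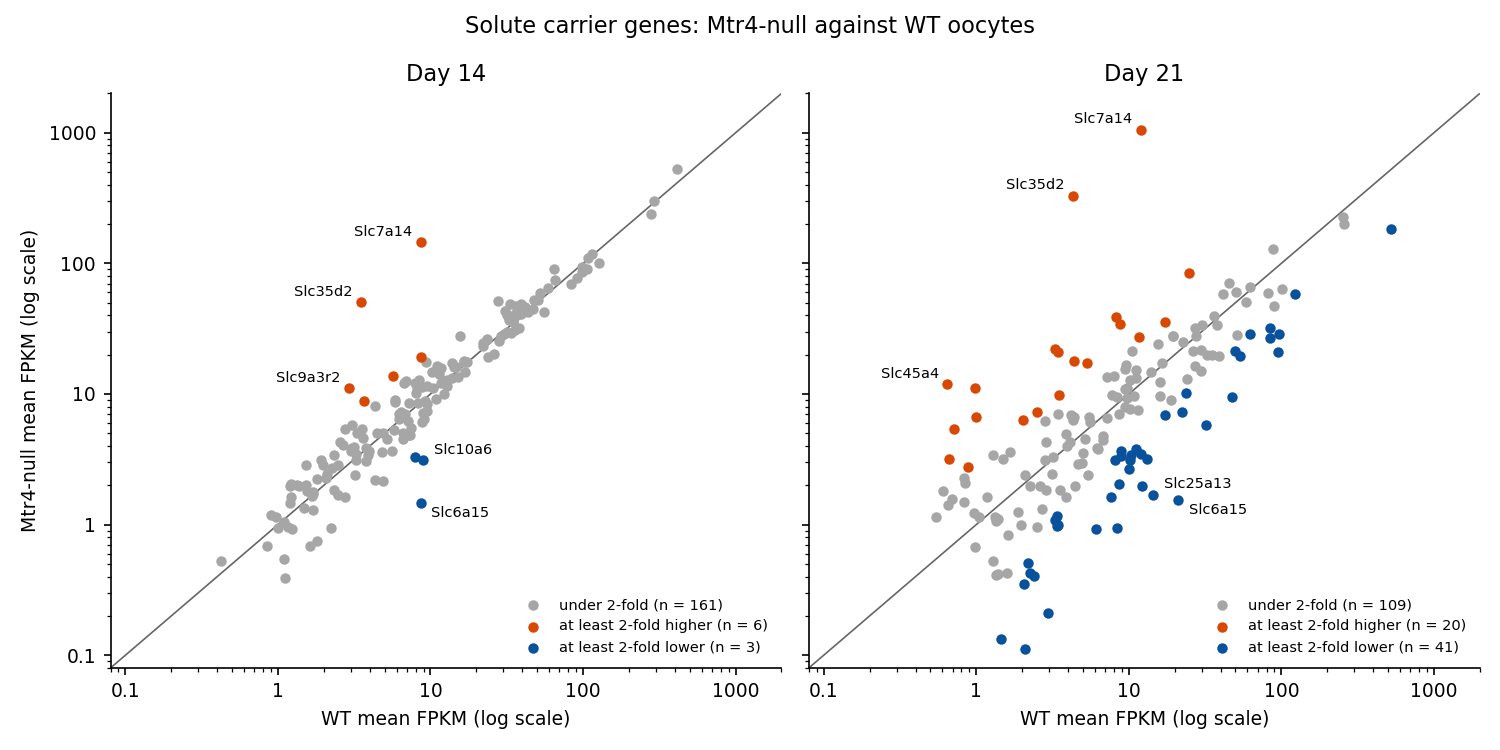
Mean FPKM of each of the 170 solute carrier genes in WT (x axis) and Mtr4-null oocytes (y axis), on log scales, at day 14 and day 21, with a line of equality. Orange and blue points are genes at least 2-fold higher (6 and 20) or lower (3 and 41) on the log2(FPKM + 1) scale, and Slc7a14 and Slc35d2 stand farthest above the line at both ages.

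The difference at day 21 is given here by WT level. Both values use the WT column of day 21, so a trend across levels is a description and not a test. Of the 31 members with at least 30 FPKM, none was 2-fold higher and 10 (32.3%) were lower. Over all 3221 genes of that level these shares were 4.75% and 36.3%. The median log2 difference was -0.70 in these members and -0.68 in all genes of that level. Of the 48 members from 1 to 3 FPKM, 8 were higher and 8 lower, 16.7% each, beside 25.9% and 13.6% of all genes of that level. Their median was 0.06 beside 0.11 over those genes. From 3 to 10 FPKM the medians were -0.19 for members and -0.23 for all genes. From 10 to 30 FPKM the median of 39 members was 0.05 and that of all 2742 genes was -0.55, the level at which the members stood farthest from other genes.

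**Figure D2:**
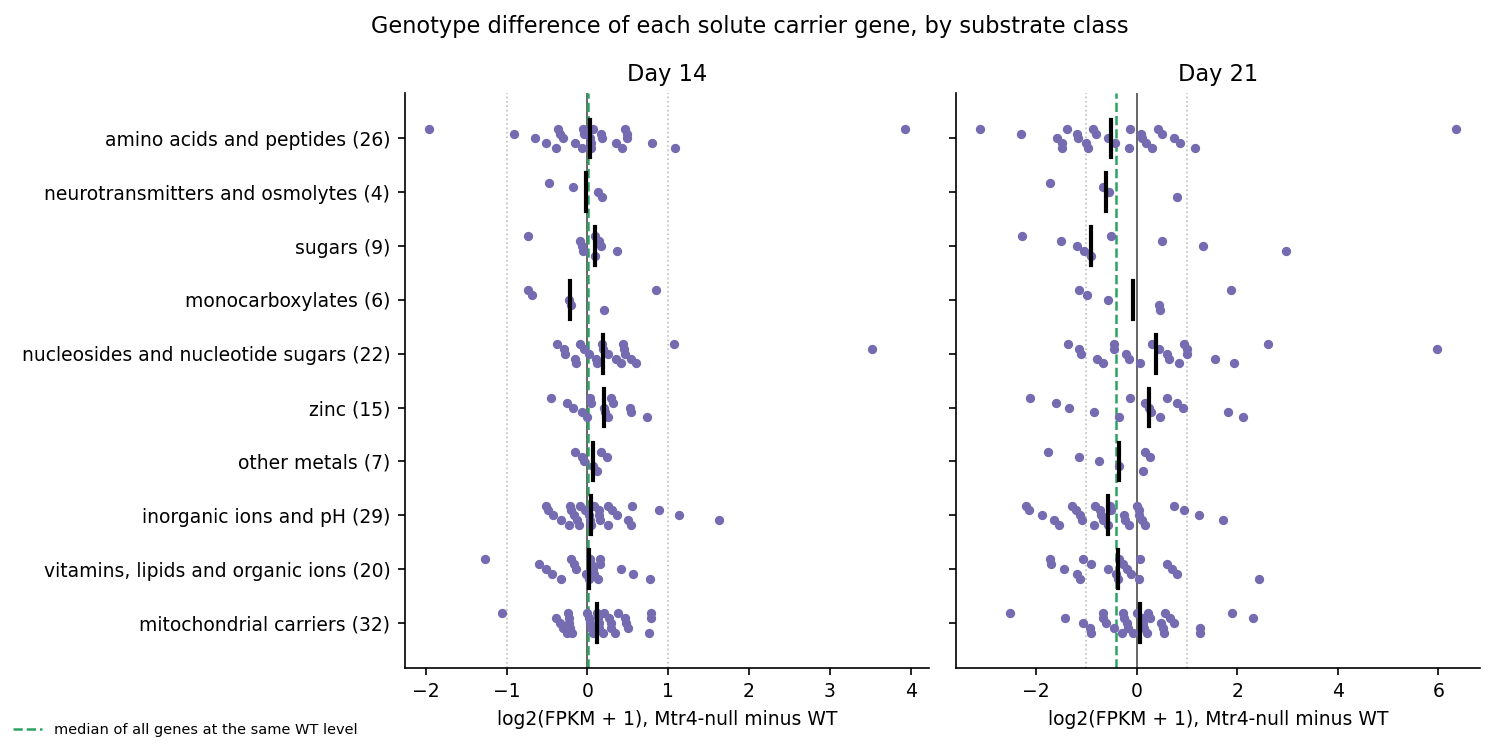
Each point is the log2(FPKM + 1) difference of a solute carrier gene, Mtr4-null minus WT, at day 14 and day 21, grouped by substrate class with the number of genes in parentheses. Black bars are class medians, dotted lines mark 2-fold, and the dashed line is the median of all genes at the same WT level, at 0.01 and -0.41. At day 21 the medians of nucleoside and nucleotide sugar (0.38), zinc (0.25) and mitochondrial carriers (0.07) lie right of 0, and that of sugar carriers (-0.90) lies farthest to the left.

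Slc7a14 and Slc35d2 held the largest values of all members in Mtr4-null oocytes relative to WT. Slc7a14 stood at 8.61 FPKM at day 14 and 12 FPKM at day 21 in WT, against 145 and 1058 FPKM in the Mtr4-null groups. The Mtr4-null level was 16.9-fold that of WT at day 14 and 88.2-fold at day 21, and in Mtr4-null oocytes Slc7a14 was the most abundant of the 170 members at day 21. Slc35d2, which carries nucleotide sugars into the Golgi, stood at 3.48 FPKM at day 14 and 4.28 FPKM at day 21 in WT, against 50.4 and 329.8 FPKM in the Mtr4-null groups, 14.5-fold and 77.1-fold the WT level. Both genes were thus higher at each age, with a wider gap at day 21.

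The genes around these loci did not share one pattern. Slc7a14 overlaps an antisense gene, Gm15496, which is not analysed here, and Smart-seq2 does not keep the strand, so its reads cannot be told from those of that gene. Its protein-coding neighbours Cldn11 and Kcnmb2 stood at no more than 0.148 and 3.21 FPKM in any group, and in the Mtr4-null column of day 21 at 0.148 and 0.364 FPKM. Slc35d2 lies 3.65 kb downstream of Zfp367 on the same strand. Zfp367, a zinc finger gene, stood at 6.77 and 1.68 FPKM in WT, against 19.1 and 48.3 FPKM in the Mtr4-null groups, so it was higher in the same columns as Slc35d2. The gene on the other side, Hsd17b3, was listed at 0 in all 4 columns. Whether transcripts run from Zfp367 into Slc35d2 was not tested.

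Among the 26 genes for amino acid and peptide carriers, 2 were higher and 1 lower at day 14, and 2 higher and 9 lower at day 21 in Mtr4-null oocytes. At day 21 these were 7.69% and 34.6% of the class, beside 14.9% and 28.3% of all genes. The medians were 0.04 and -0.50, beside 0.01 and -0.41 over all genes, most of whose 2-fold differences at day 21 were also lower. Slc6a15, a carrier of branched-chain amino acids and proline, was lower at both ages and stood at 8.64 FPKM at day 14 and 21.1 FPKM at day 21 in WT, against 1.47 and 1.55 FPKM in the Mtr4-null groups. The WT level was 5.86-fold and 13.6-fold that of Mtr4-null oocytes. Slc7a11, which imports cystine for glutathione and whose promoter is shown above, stood at 26.1 FPKM at day 14 and 32.3 FPKM at day 21 in WT, against 20.1 and 5.75 FPKM in the Mtr4-null groups. The cationic amino acid carrier Slc7a2 (CAT2) stood at 22.3 FPKM (WT) and 7.34 FPKM (Mtr4-null), and Slc7a1 (CAT1) at 2.25 FPKM (WT) and 0.425 FPKM (Mtr4-null), so both were at least 2-fold lower at day 21. Slc1a1, a high-affinity glutamate carrier, stood at 2.05 FPKM (WT) and 0.353 FPKM (Mtr4-null). Slc43a1, a carrier of large neutral amino acids, stood at 2.09 FPKM (WT) and 0.111 FPKM (Mtr4-null).

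Several carriers known from oocyte physiology differed less than 2-fold. Slc6a9, the glycine carrier GLYT1 that serves volume control in oocytes and embryos, stood at 36.2 FPKM at day 14 and 50.8 FPKM at day 21 in WT, against 46.8 and 28.5 FPKM in the Mtr4-null groups. Slc3a2, the heavy chain shared by several Slc7 carriers, stood at 50.5 and 62.1 FPKM in the WT groups, against 52.3 and 66.4 FPKM in the Mtr4-null ones, and its light chain partner Slc7a5 (LAT1) at 3.18 and 2.81 FPKM in the WT groups, against 2.404 and 3.1 FPKM in the Mtr4-null ones. The log2 differences of this pair at day 21 were 0.09 and 0.1, so the chains of this carrier stood level between genotypes while Slc7a11, another partner of Slc3a2, stood at -2.3. Slc7a6 and Slc7a7, light chains of the y+L carriers, stood apart in direction at 0.73 and -1.01, the latter under 2-fold with median-of-ratios scaling. Slc7a9, the light chain of the cystine carrier b0,+, was higher at 11.7 FPKM (WT) and 27.4 FPKM (Mtr4-null). Slc6a7, a proline carrier, was 2-fold higher at day 14 without rescaling, at 3.67 FPKM (WT) and 8.87 FPKM (Mtr4-null), but not after it. The closely related proline carrier genes may share reads, so their values are uncertain: Slc6a20a stood at 19.5 FPKM (WT) and 28.01 FPKM (Mtr4-null), and Slc6a20b at 11.2 FPKM (WT) and 15.3 FPKM (Mtr4-null). Slc16a10 (TAT1), a carrier of aromatic amino acids, stood at 10.8 FPKM (WT) and 9.63 FPKM (Mtr4-null), and Slc7a8 (LAT2) at 1.98 FPKM (WT) and 1.0 FPKM (Mtr4-null). Of the Slc38 family, Slc38a8 stood at 9.39 FPKM (WT) and 10.8 FPKM (Mtr4-null) and Slc38a10 at 1.33 FPKM (WT) and 1.13 FPKM (Mtr4-null), all 4 under 2-fold.

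Most peptide and lysosomal amino acid carriers stood below WT at day 21. Slc15a4, a lysosomal carrier of histidine and dipeptides, stood at 34.7 and 38.99 FPKM in the WT groups, against 36.3 and 19.6 FPKM in the Mtr4-null ones at day 14 and day 21. Slc15a5, of the same family, was lower at day 21, at 10.1 FPKM (WT) and 2.68 FPKM (Mtr4-null), and Slc15a2 (PEPT2) stood at 4.43 FPKM (WT) and 1.98 FPKM (Mtr4-null). Slc38a9, the lysosomal arginine sensor of mTORC1, stood at 7.82 FPKM (WT) and 9.85 FPKM (Mtr4-null) and Slc38a7, a lysosomal glutamine carrier, at 6.79 FPKM (WT) and 4.78 FPKM (Mtr4-null). The summed FPKM of the class was 354 and 437 in WT and 510.4 and 1347 in Mtr4-null oocytes, and Slc7a14 alone gave 1058 of the last value. Slc7a6os, which encodes an import factor of RNA polymerase II and no carrier, stood at 84.7 FPKM (WT) and 31.8 FPKM (Mtr4-null) at day 21.

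Of the 4 carriers of neurotransmitters and osmolytes, none was 2-fold apart at day 14 and 1 was lower at day 21 (25%, beside 28.3% of all genes). Slc6a6, the taurine carrier, stood at 15.2 and 16.03 FPKM in the WT groups, against 13.4 and 9.68 FPKM in the Mtr4-null ones at day 14 and day 21. Slc6a4, the serotonin carrier, stood at 14.6 and 11.5 FPKM in the WT groups, against 16.1 and 7.53 FPKM in the Mtr4-null ones. Slc18a2, which loads monoamines into vesicles, stood at 6.63 and 7.61 FPKM in the WT groups, against 4.49 and 1.61 FPKM in the Mtr4-null ones and was the member counted as lower. Slc5a3, the myo-inositol carrier induced by hypertonic stress in other cells, stood at 2.25 and 0.601 FPKM in the WT groups, against 2.69 and 1.81 FPKM in the Mtr4-null ones. Its Mtr4-null level was above that of WT at both ages and under 2-fold on the log2(FPKM + 1) scale. At day 21 the plain FPKM ratio was 3.01.

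Sugar carriers had the lowest class median at day 21, -0.90 over 9 genes, with 4 lower and 2 higher, and none was 2-fold apart at day 14. The 4 lower and 2 higher genes are 44.4% and 22.2% of the class, beside 28.3% and 14.9% of all genes. Slc45a3, the most abundant member in WT, stood at 414 FPKM at day 14 and 523 FPKM at day 21 in WT, against 532 and 185 FPKM in the Mtr4-null groups. Its FPKM at day 21 was 2.83-fold lower, while at day 14 the Mtr4-null value was above that of WT. Slc2a12, a glucose carrier of the GLUT family, stood at 4.35 and 8.43 FPKM in the WT groups, against 2.21 and 0.938 FPKM in the Mtr4-null ones, and the lysosomal Slc37a3 at 9.22 and 8.84 FPKM in the WT groups, against 8.76 and 3.33 FPKM in the Mtr4-null ones. Slc2a1 (GLUT1), which supplies basal glucose to most cells, stood at 32.95 and 19.4 FPKM in the WT groups, against 37.01 and 27.9 FPKM in the Mtr4-null ones, a log2 difference of 0.51 at day 21. The genes counted as higher were Slc45a4, a relative of Slc45a3, and Slc50a1, the SWEET1 sugar carrier. Slc45a4 stood at 2.06 and 0.647 FPKM in the WT groups, against 2.26 and 11.9 FPKM in the Mtr4-null ones, 18.4-fold at day 21, so the relatives Slc45a3 and Slc45a4 stood on opposite sides of WT at that age. Slc50a1 stood at 1.54 and 0.661 FPKM in the WT groups, against 1.797 and 3.17 FPKM in the Mtr4-null ones. Slc5a10, known from the kidney, stood at 3.29 FPKM (WT) and 1.08 FPKM (Mtr4-null) and was under 2-fold with median-of-ratios scaling. Slc5a4b stood at 1.62 FPKM (WT) and 0.833 FPKM (Mtr4-null), and Slc2a10 (GLUT10) at 3.89 FPKM (WT) and 1.61 FPKM (Mtr4-null). The summed FPKM of the class was 472 and 570.1 in WT and 592 and 236 in Mtr4-null oocytes, 91.7% or more of it in 3 genes in each group.

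Among 6 monocarboxylate carriers, which move lactate, pyruvate and ketone bodies, 1 was higher and 1 lower at day 21. Each is 16.7% of the class, beside 14.9% and 28.3% of all genes. Slc16a1 (MCT1), the widespread lactate and pyruvate carrier, stood at 9.36 FPKM at day 14 and 8.705 FPKM at day 21 in WT, against 17.7 and 34.6 FPKM in the Mtr4-null groups, 1.89-fold and 3.97-fold. Slc5a12, a sodium-coupled lactate carrier, was lower at day 21 at 3.37 FPKM (WT) and 0.984 FPKM (Mtr4-null). Slc16a13 was the most abundant and stood at 35.8 and 18.99 FPKM in the WT groups, against 31.1 and 9.04 FPKM in the Mtr4-null ones, just under 2-fold lower at day 21. Slc16a5 stood at 0.541 FPKM (WT) and 1.14 FPKM (Mtr4-null), and Slc16a6 at 0.829 FPKM (WT) and 1.5 FPKM (Mtr4-null). Slc5a8, a sodium-coupled carrier like Slc5a12, stood at 1.28 FPKM (WT) and 0.5304 FPKM (Mtr4-null). The class median at day 21 was -0.06, which took the other sign, 0.01, with median-of-ratios scaling.

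Nucleoside and nucleotide sugar carriers had the highest class median at day 21, 0.38 over 22 genes, and 0.51 and 0.35 under the 2 rescalings. At day 14, 2 were higher (9.09%) and none lower, beside 5.24% and 1.68% of all genes. At day 21, 6 were higher (27.3%) and 3 lower (13.6%), beside 14.9% and 28.3% of all genes. Besides Slc35d2, the higher genes of the Slc35 family were Slc35e2, Slc35f5 and Slc35b2. Slc35e2 stood at 1.54 FPKM at day 14 and 0.987 FPKM at day 21 in WT, against 2.86 and 11.1 FPKM in the Mtr4-null groups, and Slc35f5 at 10.96 FPKM at day 14 and 5.29 FPKM at day 21 in WT, against 16.3 and 17.4 FPKM in the Mtr4-null groups. The substrates of these 2 are not settled. Slc35b2, which brings the sulfate donor PAPS into the Golgi, stood at 30.8 and 17.2 FPKM in the WT groups, against 43.1 and 35.5 FPKM in the Mtr4-null ones, and its relative Slc35b3 at 52.1 and 45.6 FPKM in the WT groups, against 59.7 and 71.3 FPKM in the Mtr4-null ones, so both PAPS carriers lay above WT at day 21 and the former reached 2-fold.

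Several carriers of the sugar donors themselves stood under 2-fold from WT at day 21, unlike Slc35d2 above. Slc35a1, for CMP-sialic acid, stood at 37.8 FPKM (WT) and 33.9 FPKM (Mtr4-null). Slc35a2, for UDP-galactose, stood at 2.87 FPKM (WT) and 4.29 FPKM (Mtr4-null). Slc35a3, for UDP-N-acetylglucosamine, stood at 2.87 FPKM (WT) and 1.84 FPKM (Mtr4-null). Slc35c1, for GDP-fucose, stood at 10.1 FPKM (WT) and 12.7 FPKM (Mtr4-null), and none of these 4 was 2-fold apart. The lower genes were Slc35b1, Slc35c2 and Slc35f2. Slc35b1, which exchanges ATP for ADP across the endoplasmic reticulum, stood at 55.8 and 62.2 FPKM in the WT groups, against 42.6 and 28.6 FPKM in the Mtr4-null ones, and under 2-fold after rescaling. Slc35c2 stood at 28.1 and 23.7 FPKM in the WT groups, against 25.3 and 10.2 FPKM in the Mtr4-null ones and Slc35f2 at 8.98 and 11.2 FPKM in the WT groups, against 7.14 and 3.76 FPKM in the Mtr4-null ones. Slc35e4 was counted as higher at day 14, at 8.72 FPKM (WT) and 19.4 FPKM (Mtr4-null), but not after rescaling. Under 2-fold at both ages were Slc35a4 at 58.6 FPKM (WT) and 50.5 FPKM (Mtr4-null) and Slc35a5 at 13.97 FPKM (WT) and 14.8 FPKM (Mtr4-null). Slc35b4, for UDP-xylose, stood at 35.2 FPKM (WT) and 19.9 FPKM (Mtr4-null), the farthest below WT of these 3.

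Of the nucleoside carriers of the plasma membrane and lysosome, 2 were counted as higher and none as lower. Slc28a3, the concentrative carrier CNT3, stood at 1.48 FPKM at day 14 and 1.001 FPKM at day 21 in WT, against 1.34 and 6.66 FPKM in the Mtr4-null groups, 6.66-fold at day 21, and it was level at day 14. Slc29a3, the lysosomal equilibrative carrier ENT3, stood at 1.203 and 0.8802 FPKM in the WT groups, against 1.99 and 2.77 FPKM in the Mtr4-null ones, under 2-fold with quantile normalization, and Slc29a2 (ENT2) at 9.54 and 4.21 FPKM in the WT groups, against 11.6 and 6.92 FPKM in the Mtr4-null ones. Slc28a1 (CNT1) stood at 2.68 FPKM (WT) and 1.31 FPKM (Mtr4-null) and Slc43a3, a purine nucleobase carrier, at 29.8 FPKM (WT) and 21.6 FPKM (Mtr4-null). Of Slc29a1 (ENT1), the usual carrier of many cells, the WT mean was under 1 FPKM, so it is not a member.

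Zinc carriers divided by gene at day 21. Slc39 (ZIP) proteins bring zinc into the cytosol and Slc30 (ZnT) proteins move it out or into vesicles. Of 15 genes, none was 2-fold apart at day 14. At day 21, 2 were higher (13.3%) and 3 lower (20%), beside 14.9% and 28.3% of all genes. The median at day 21 was 0.25 beside -0.41 over all genes, and 0.37 and 0.23 under the rescalings. The median at day 14 was 0.20, and -0.04 with quantile normalization. ZIP6 and ZIP10, a pair of importers known to load zinc into the maturing mouse oocyte, were lower. Slc39a6 (ZIP6) stood at 98.2 FPKM at day 14 and 95.5 FPKM at day 21 in WT, against 93.6 and 21.1 FPKM in the Mtr4-null groups, and Slc39a10 (ZIP10) at 83.5 FPKM at day 14 and 83.8 FPKM at day 21 in WT, against 69.96 and 27.05 FPKM in the Mtr4-null groups. These differences at day 21 are 4.52-fold and 3.098-fold, and the 3 other columns of each gene lay close together. Slc39a6 overlaps Elp2 on the opposite strand, so some of its reads may belong to that gene.

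The importer Slc39a1 (ZIP1) and the exporter Slc30a6 showed the opposite order at day 21, and in both the WT column at day 21 was the one that stood apart. Slc39a1 stood at 33.4 FPKM at day 14 and 8.29 FPKM at day 21 in WT, against 48.6 and 39.2 FPKM in the Mtr4-null groups. Slc30a6, which works as a pair with Slc30a5 in the secretory pathway, stood at 13.8 FPKM at day 14 and 4.37 FPKM at day 21 in WT, against 17.1 and 17.9 FPKM in the Mtr4-null groups, while Slc30a5 stood at 16.9 and 24.1 FPKM in the WT groups, against 14.9 and 13 FPKM in the Mtr4-null ones. The members of that pair thus had log2 differences of 1.81 and -0.84 at day 21. Slc30a4 was the third gene counted as lower, at 10.3 FPKM (WT) and 3.42 FPKM (Mtr4-null), and the abundant Slc30a3 stood at 293 and 256 FPKM in the WT groups, against 299 and 202 FPKM in the Mtr4-null ones, under 2-fold at both ages. The other zinc carriers were under 2-fold on the log2(FPKM + 1) scale, but Slc39a11 and Slc30a7 were over it at day 21 with a pseudocount of 0.1. Slc39a7, which releases zinc from the endoplasmic reticulum, stood at 4.31 FPKM (WT) and 6.29 FPKM (Mtr4-null). Slc39a9, of the Golgi, stood at 8.41 FPKM (WT) and 9.52 FPKM (Mtr4-null), and Slc39a11 at 1.66 FPKM (WT) and 3.62 FPKM (Mtr4-null). Slc39a3 (ZIP3) stood at 1.17 FPKM (WT) and 1.63 FPKM (Mtr4-null). Among the exporters, Slc30a9 stood at 5.48 FPKM (WT) and 6.71 FPKM (Mtr4-null) and Slc30a2 at 2.26 FPKM (WT) and 1.99 FPKM (Mtr4-null). Slc30a7, of the secretory pathway, stood at 0.689 FPKM (WT) and 1.57 FPKM (Mtr4-null).

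**Figure D3:**
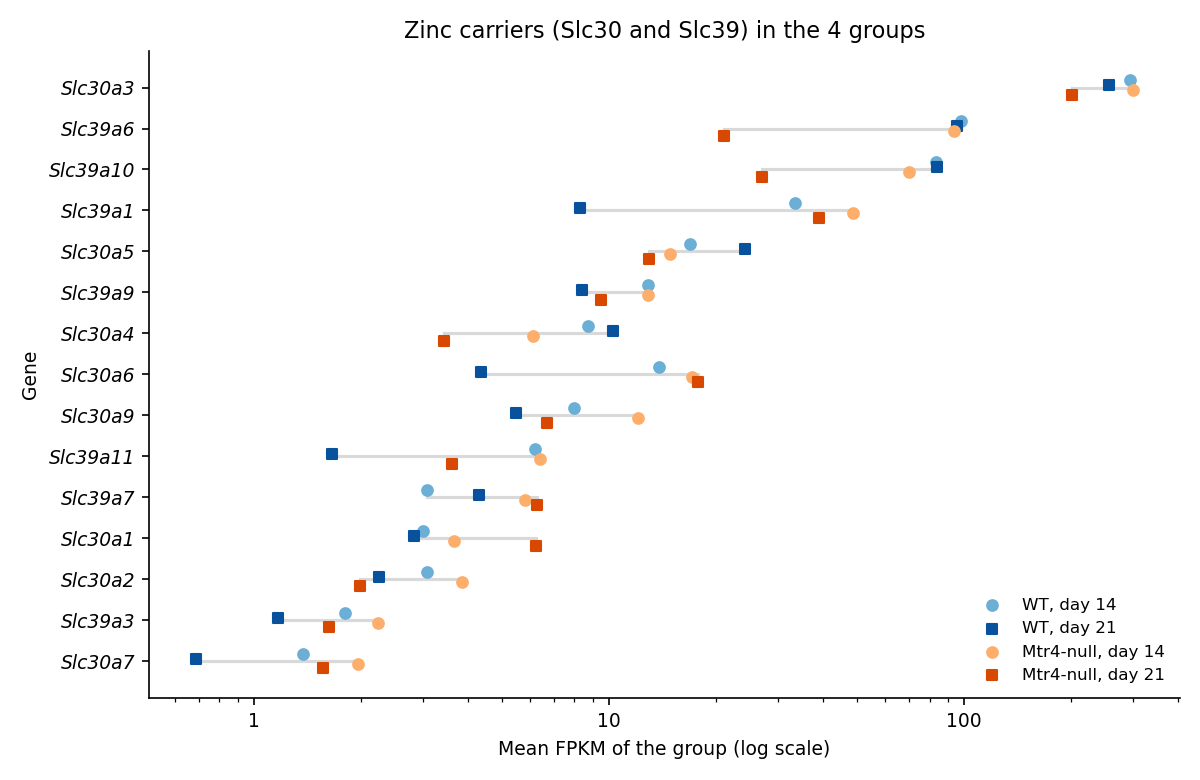
Mean FPKM on a log scale of the 15 zinc carrier genes in the 4 groups, ordered by WT level, with a grey line from the lowest to the highest group. Slc39a6 and Slc39a10 are lowest in Mtr4-null oocytes at day 21 (21.1 and 27.05 FPKM), and Slc39a1 and Slc30a6 are lowest in WT oocytes at day 21 (8.29 and 4.37 FPKM).

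Slc30a1 (ZnT1) is, with metallothionein, the textbook target of MTF1, and its promoter is shown above. Slc30a1 stood at 3.005 FPKM at day 14 and 2.83 FPKM at day 21 in WT, against 3.66 and 6.25 FPKM in the Mtr4-null groups, with a log2 difference of 0.22 and 0.92. At day 21 this was under 2-fold on the log2(FPKM + 1) scale, both without rescaling and with quantile normalization (0.84). It was over 2-fold with median-of-ratios scaling (1.05) and with a pseudocount of 0.1 (1.12), and the plain FPKM ratio was 2.21. Mt1, the metallothionein that stores zinc and copper, stood at 1.48 FPKM at day 14 and 1.77 FPKM at day 21 in WT, against 640.5 and 446 FPKM in the Mtr4-null groups, and Mt4 at 35.5 FPKM at day 14 and 48.3 FPKM at day 21 in WT, against 23.1 and 2.64 FPKM in the Mtr4-null groups. Mt2 stayed near 1 FPKM or below, at 0.724 and 0.133 FPKM in the WT groups, against 0.199 and 1.05 FPKM in the Mtr4-null ones. Mtf1 itself stood at 10.8 and 11.3 FPKM in the WT groups, against 10.7 and 7.99 FPKM in the Mtr4-null ones. At day 21 Mt1 and Mt4 thus stood on opposite sides of WT, and Mtf1 was under 2-fold. The summed FPKM of the zinc carriers was 587 and 509 in WT and 598 and 361 in Mtr4-null oocytes, with Slc30a3, Slc39a6 and Slc39a10 among the main contributors.

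Of the 7 carriers of other metals, none was 2-fold apart at day 14 and 2 were lower at day 21, both of the Slc41 family of magnesium carriers. These 2 are 28.6% of the class, beside 28.3% of all genes that were lower. Slc41a2 stood at 16.6 FPKM at day 14 and 13.2 FPKM at day 21 in WT, against 17.5 and 3.16 FPKM in the Mtr4-null groups. Slc41a1, which exports magnesium, stood at 3.15 and 3.42 FPKM in the WT groups, against 3.91 and 0.999 FPKM in the Mtr4-null ones, and the mitochondrial Slc41a3 at 1.19 and 1.38 FPKM in the WT groups, against 1.46 and 0.422 FPKM in the Mtr4-null ones, so all 3 were below WT at day 21 and above it at day 14 on the deposited scale. Copper, iron and haem carriers stood near the WT level. Slc31a1 (CTR1), the copper importer, stood at 13.8 and 10.1 FPKM in the WT groups, against 13.3 and 7.72 FPKM in the Mtr4-null ones, and Slc31a2, the most abundant of the class, at 59.4 and 50.3 FPKM in the WT groups, against 64.5 and 60.5 FPKM in the Mtr4-null ones. Slc11a2 (DMT1), for iron, stood at 22.6 FPKM (WT) and 24.9 FPKM (Mtr4-null) and Slc48a1, for haem, at 9.78 FPKM (WT) and 11.02 FPKM (Mtr4-null).

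Of 29 genes in the class of inorganic ions and pH, 2 were higher and none lower at day 14, and 2 were higher and 9 lower at day 21, with medians of 0.04 and -0.57. At day 21 these were 6.90% and 31.0% of the class, beside 14.9% and 28.3% of all genes, whose median was -0.41. Of the 4 bicarbonate carriers of the Slc4 family, 2 were lower at day 21. Slc4a8, which brings in sodium with bicarbonate, stood at 10.8 and 12.1 FPKM in the WT groups, against 9.22 and 1.96 FPKM in the Mtr4-null ones. Slc4a5, of the same kind, stood at 9.02 and 8.58 FPKM in the WT groups, against 6.47 and 2.06 FPKM in the Mtr4-null ones. Slc4a7 stood at 6.81 FPKM (WT) and 4.46 FPKM (Mtr4-null), and Slc4a2 (AE2), the chloride and bicarbonate exchanger that corrects high pH in oocytes, at 3.19 FPKM (WT) and 3.31 FPKM (Mtr4-null). The median over these 4 was -1.08. Slc9a8, a sodium and proton exchanger of the Golgi, stood at 1.29 FPKM (WT) and 3.43 FPKM (Mtr4-null). It was above WT and under 2-fold except with median-of-ratios scaling or a pseudocount of 0.1. Slc9a4 (NHE4) stood at 3.54 FPKM (WT) and 1.84 FPKM (Mtr4-null).

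The sulfate carrier was higher and the phosphate carriers of the Slc20 family level, while several anion and calcium exchangers were lower. Slc26a2, the sulfate carrier, stood at 27.7 FPKM at day 14 and 24.7 FPKM at day 21 in WT, against 51.8 and 83.8 FPKM in the Mtr4-null groups, 1.87-fold and 3.395-fold. Slc26a6, an anion exchanger, stood at 27.2 FPKM (WT) and 16.3 FPKM (Mtr4-null). Slc26a9 stood at 8.07 FPKM (WT) and 3.13 FPKM (Mtr4-null) and Slc26a5 (prestin) at 2.398 FPKM (WT) and 0.403 FPKM (Mtr4-null), both counted as lower, while Slc26a10 stood at 0.972 FPKM (WT) and 1.23 FPKM (Mtr4-null). The phosphate carrier Slc20a1 stood at 16.5 FPKM (WT) and 17.1 FPKM (Mtr4-null), and Slc20a2 at 3.93 FPKM (WT) and 3.97 FPKM (Mtr4-null). Slc34a1, the phosphate carrier of the kidney, stood at 1.58 FPKM (WT) and 0.4296 FPKM (Mtr4-null), and the iodide carrier Slc5a5 at 1.34 FPKM (WT) and 0.408 FPKM (Mtr4-null). Slc24a3, which exchanges sodium for calcium and potassium, stood at 7.19 and 6.07 FPKM in the WT groups, against 4.83 and 0.922 FPKM in the Mtr4-null ones, and its relative Slc24a2 at 0.974 FPKM (WT) and 0.669 FPKM (Mtr4-null). Of the cation and chloride carriers, Slc12a2 (NKCC1) stood at 5.59 FPKM (WT) and 6.09 FPKM (Mtr4-null). Slc12a7 (KCC4) stood at 9.43 FPKM (WT) and 7.904 FPKM (Mtr4-null). Slc12a9 was lower at 11.95 FPKM (WT) and 3.46 FPKM (Mtr4-null), while Slc12a8 stood at 5.15 FPKM (WT) and 4.55 FPKM (Mtr4-null) and Slc12a5 (KCC2) at 2.49 FPKM (WT) and 0.956 FPKM (Mtr4-null). Slc9a3 (NHE3) was 2-fold higher at day 14 at 5.67 FPKM (WT) and 13.6 FPKM (Mtr4-null), not so after rescaling, and at 4.91 FPKM (WT) and 2.97 FPKM (Mtr4-null) at day 21.

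The 3 symbols of this class that are not carriers were among its counted genes. Slc9a3r2, the scaffold NHERF2 that tethers NHE3, stood at 2.92 and 2.49 FPKM in the WT groups, against 11.1 and 7.25 FPKM in the Mtr4-null ones at day 14 and day 21, higher at both ages. Its relative Slc9a3r1 (NHERF1) stood at 17.4 and 17.3 FPKM in the WT groups, against 17.6 and 6.91 FPKM in the Mtr4-null ones, and Slc4a1ap (kanadaptin) at 31.9 and 47.6 FPKM in the WT groups, against 29.97 and 9.52 FPKM in the Mtr4-null ones, both lower at day 21. Without the 4 such symbols, 19 members were higher and 38 lower at day 21.

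Of 20 carriers of vitamins, lipids and organic ions, 1 was lower at day 14, and 1 was higher and 6 lower at day 21, with medians of 0.03 and -0.36. At day 21 these were 5% and 30% of the class, beside 14.9% and 28.3% of all genes, whose median was -0.41. Slc44a2, a choline carrier and the most abundant of the class, stood at 98.1 FPKM at day 14 and 97.1 FPKM at day 21 in WT, against 85.4 and 28.6 FPKM in the Mtr4-null groups. Its relative Slc44a1 stood at 4.15 FPKM (WT) and 4.31 FPKM (Mtr4-null), and Slc44a4 at 7.205 FPKM (WT) and 6.58 FPKM (Mtr4-null). Slc44a3 was lower, at 2.93 FPKM (WT) and 0.2099 FPKM (Mtr4-null). Slc23a2 (SVCT2), which imports ascorbate, stood at 39.5 and 49.4 FPKM in the WT groups, against 40.6 and 21.2 FPKM in the Mtr4-null ones, and its relative Slc23a3, not known to carry ascorbate, at 12.3 and 10.2 FPKM in the WT groups, against 12.2 and 3.13 FPKM in the Mtr4-null ones. Slc47a2 was lower, at 2.17 FPKM (WT) and 0.512 FPKM (Mtr4-null), and so was Slc17a2, at 1.46 FPKM (WT) and 0.134 FPKM (Mtr4-null). Slc17a5 (sialin), which releases sialic acid from lysosomes, was the gene counted as higher and stood at 4.31 FPKM at day 14 and 3.27 FPKM at day 21 in WT, against 8.06 and 22.1 FPKM in the Mtr4-null groups, 6.75-fold at day 21.

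Folate, biotin, carnitine and acetyl-CoA carriers stood within 2-fold. Slc19a1, the reduced folate carrier, stood at 8.02 FPKM (WT) and 13.8 FPKM (Mtr4-null). Slc5a6, for biotin and pantothenate, stood at 3.13 FPKM (WT) and 2.43 FPKM (Mtr4-null). Slc22a5, for carnitine, stood at 4.99 FPKM (WT) and 3.54 FPKM (Mtr4-null). Its relatives Slc22a3 (OCT3) and Slc22a23 were under 2-fold too, the former at 1.89 FPKM (WT) and 1.24 FPKM (Mtr4-null) and the latter at 6.202 FPKM (WT) and 3.88 FPKM (Mtr4-null). Slc27a2, which takes up fatty acids, stood at 1.35 FPKM (WT) and 1.06 FPKM (Mtr4-null). Slc33a1, which carries acetyl-CoA into the endoplasmic reticulum, stood at 7.22 FPKM (WT) and 13.4 FPKM (Mtr4-null). Slc10a6, a carrier of sulfated steroids, was the gene lower at day 14 and stood at 8.95 FPKM at day 14 and 16.1 FPKM at day 21 in WT, against 3.13 and 12.4 FPKM in the Mtr4-null groups, so that at day 21 it was again near the WT level. Of the other Slc10 members, Slc10a3 stood at 15.5 FPKM (WT) and 24 FPKM (Mtr4-null) and Slc10a7 at 5.37 FPKM (WT) and 2.38 FPKM (Mtr4-null).

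Mitochondrial carriers were the largest class, with 32 genes of the Slc25 family and 33.7% of the summed FPKM of the members in WT oocytes at day 14. None was higher and 1 lower at day 14, and 4 were higher and 3 lower at day 21, that is 12.5% and 9.38% of the class. Of the 138 other members, 16 were higher and 38 lower at day 21, 11.6% and 27.5%. Over all genes these shares were 14.9% and 28.3%. The class medians were 0.12 and 0.07, beside 0.05 and -0.35 for the other members and 0.01 and -0.41 over all genes. The median at day 14 was -0.02 with median-of-ratios scaling, and that at day 21 was 0.20 and 0.09 under the rescalings. The summed FPKM of the class was 1307 and 1137 in WT and 1280.3 and 978 in Mtr4-null oocytes.

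Among the mitochondrial carriers of nucleotides and cofactors, the abundant ADP/ATP carriers stood apart from one another. Slc25a5 (ANT2) stood at 279 and 256 FPKM in the WT groups, against 239 and 226 FPKM in the Mtr4-null ones, Slc25a4 (ANT1) at 115 and 88.1 FPKM in the WT groups, against 119 and 129.9 FPKM in the Mtr4-null ones, and Slc25a31 (ANT4), known from male meiosis, at 128 and 122 FPKM in the WT groups, against 101 and 58.3 FPKM in the Mtr4-null ones. At day 21 their log2 differences were -0.18, 0.55 and -1.06, the last under 1 in size after rescaling. Slc25a33 and Slc25a36, which carry pyrimidine nucleotides, were both higher at day 21, the former at 2.03 FPKM (WT) and 6.28 FPKM (Mtr4-null) and the latter at 3.48 FPKM (WT) and 9.78 FPKM (Mtr4-null). Slc25a26, for S-adenosylmethionine, stood at 41.2 FPKM (WT) and 57.9 FPKM (Mtr4-null). Slc25a32, for folate or FAD, stood at 30.4 FPKM (WT) and 33.5 FPKM (Mtr4-null). Slc25a17, a carrier of peroxisomes, stood at 91.2 and 102 FPKM in the WT groups, against 76.7 and 63.5 FPKM in the Mtr4-null ones. Of the 12 genes of this group, 2 were higher and 1 lower at day 21.

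Of the 8 mitochondrial carriers of amino acids and carnitine, Slc25a13 alone was 2-fold apart. Slc25a13 (citrin), an aspartate and glutamate exchanger of the malate-aspartate shuttle, stood at 7.96 FPKM at day 14 and 14.5 FPKM at day 21 in WT, against 3.29 and 1.695 FPKM in the Mtr4-null groups. Its paralog Slc25a12 (aralar) stood at 3.63 and 3.89 FPKM in the WT groups, against 4.58 and 4.91 FPKM in the Mtr4-null ones, so the exchangers differed in log2 difference at day 21, -2.52 against 0.27. Slc25a11, the oxoglutarate and malate carrier of the same shuttle, stood at 11.5 and 9.63 FPKM in the WT groups, against 14.3 and 16.8 FPKM in the Mtr4-null ones. Slc25a15, for ornithine, stood at 89.1 FPKM (WT) and 46.99 FPKM (Mtr4-null), and Slc25a22, for glutamate, at 4.35 FPKM (WT) and 6.67 FPKM (Mtr4-null). Slc25a38, for glycine, stood at 36.1 FPKM (WT) and 39.7 FPKM (Mtr4-null). Slc25a20, for acylcarnitine, stood at 11.1 FPKM (WT) and 13.2 FPKM (Mtr4-null).

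Carriers of carboxylates and phosphate and those of other substrates included the remaining counted genes. Slc25a10, the dicarboxylate carrier, stood at 2.73 FPKM at day 14 and 0.713 FPKM at day 21 in WT, against 5.44 and 5.37 FPKM in the Mtr4-null groups. Slc25a1, which exports citrate, stood at 41.6 and 32.7 FPKM in the WT groups, against 46.1 and 20.04 FPKM in the Mtr4-null ones and Slc25a3, the phosphate carrier, at 107 and 81.5 FPKM in the WT groups, against 90.8 and 59.2 FPKM in the Mtr4-null ones. Slc25a46, which sits in the outer membrane and shapes mitochondrial fusion and fission, stood at 6.93 FPKM at day 14 and 3.43 FPKM at day 21 in WT, against 12.6 and 21.03 FPKM in the Mtr4-null groups, 6.13-fold at day 21. Slc25a46 overlaps B930094E09Rik on the opposite strand. Slc25a48 was lower at day 21, at 53.5 FPKM (WT) and 19.4 FPKM (Mtr4-null), and Slc25a39, tied to glutathione import, stood at 27.3 FPKM (WT) and 31.8 FPKM (Mtr4-null). Slc25a40, its relative, stood at 9.44 FPKM (WT) and 15.5 FPKM (Mtr4-null). Slc25a28 (mitoferrin 2), for iron, stood at 2.08 FPKM (WT) and 2.42 FPKM (Mtr4-null). Slc25a35 stood at 27.7 FPKM (WT) and 27.7 FPKM (Mtr4-null), level between genotypes, and Slc25a14 at 26.2 FPKM (WT) and 21.2 FPKM (Mtr4-null). The pyruvate carrier lies outside the SLC symbols used here: its subunit gene Brp44l (Mpc1) stood at 108 and 114 FPKM in the WT groups, against 73.1 and 48.2 FPKM in the Mtr4-null ones and was lower at day 21.

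**Figure D4:**
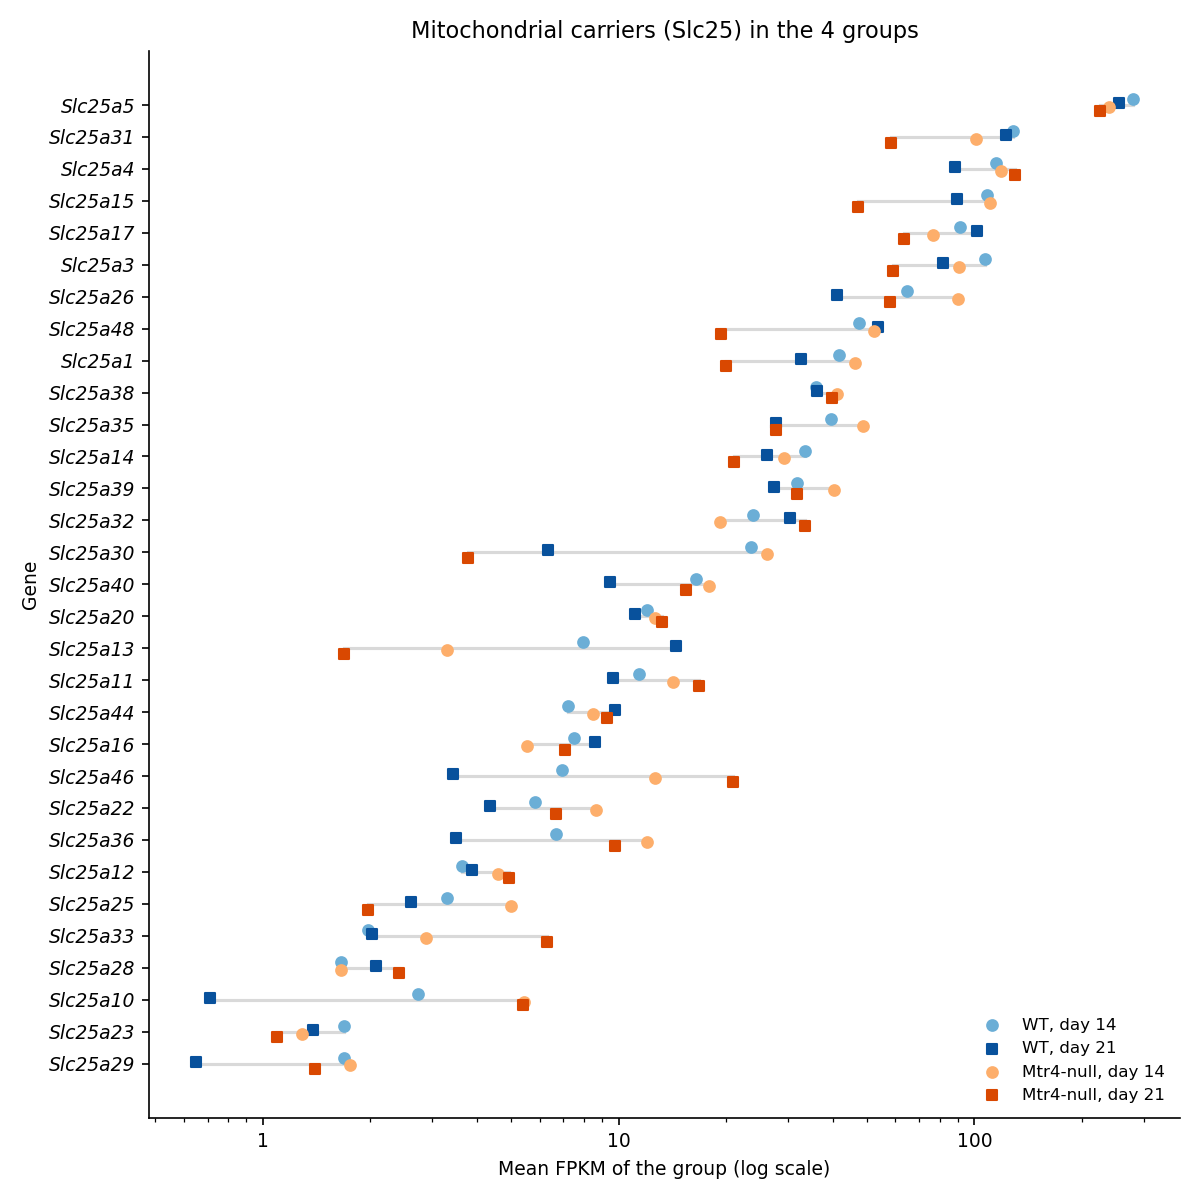
Mean FPKM on a log scale of 31 of the 32 mitochondrial carrier genes in the 4 groups, ordered by WT level, with a grey line from the lowest to the highest group. Slc25a13 is lowest in Mtr4-null oocytes at both ages (3.29 and 1.695 FPKM), Slc25a46 is highest there at both ages (12.6 and 21.03 FPKM), and Slc25a30 is low at day 21 in both genotypes (6.32 and 3.79 FPKM).

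The genotype comparisons at the 2 ages share no column, so they can be set beside each other. Of the 20 members higher at day 21, 19 (95%) were above WT at day 14, beside 94.9% of 1663 genes overall. Of the 41 lower at day 21, 30 (73.2%) were below WT at day 14, beside 79.4% of 3153 genes. The members 2-fold apart at both ages were Slc7a14, Slc35d2 and Slc9a3r2, which were higher, and Slc6a15 and Slc25a13, which were lower, and no member was 2-fold apart in opposite directions. Of the members, 65 were 2-fold apart at 1 or both ages and 105 at neither.

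Between day 14 and day 21 the carriers of WT oocytes stood close together. In WT oocytes 2 members were at least 2-fold higher at day 21 and 9 lower, against 2.29% and 3.52% of all genes, and the median log2 difference was -0.15 beside 0.01. The higher genes were Slc6a15 (1.2) and Slc5a12 (1.2). The lower genes included 3 zinc carriers, Slc39a1, Slc30a6 and Slc39a11, and 2 mitochondrial carriers, Slc25a30 and Slc25a10. Slc25a30 stood at 23.5 and 6.32 FPKM in WT and 26.2 and 3.79 FPKM in Mtr4-null oocytes, lower at day 21 in both genotypes. Slc39a11 stood at 6.196 and 1.66 FPKM in WT and 6.41 and 3.62 FPKM in Mtr4-null oocytes. The others were Slc5a8, Slc16a5, Slc5a3 and Slc29a2. With quantile normalization 6 were lower, since Slc5a8, Slc5a3 and Slc29a2 were then under 2-fold.

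In Mtr4-null oocytes 7 members were higher at day 21 than at day 14 and 37 lower, against 5.88% and 19.5% of all genes, with a median of -0.35 beside -0.37. With median-of-ratios scaling these counts were 11 and 21, and with quantile normalization 12 and 24, so the higher share went from 15.9% to 34.4% and 33.3%, as the median of all genes went from -0.37 to -0.11 and -0.19. The 7 higher members were Slc7a14, Slc35d2, Slc45a4, Slc28a3, Slc10a6, Slc35e2 and Slc17a5, and they were higher under both rescalings too. The lower ones with the largest differences were Slc25a30 (-2.5), Slc41a2 (-2.15), Slc39a6 (-2.1), Slc9a3 (-1.88) and Slc4a8 (-1.79). The age and genotype differences share columns: of the 9 genes lower with age in WT oocytes, 7 stood above WT in Mtr4-null oocytes at day 21, and both values use the WT column of day 21. They are therefore given side by side and not as support for each other.

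**Figure D5:**
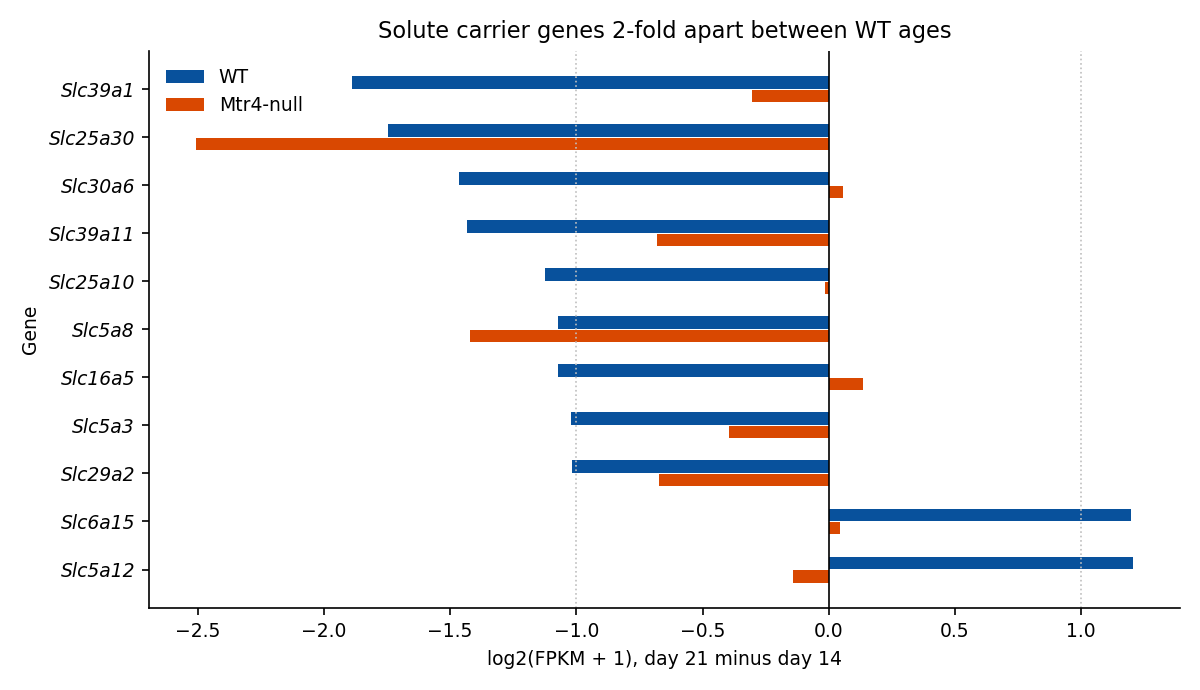
Difference of log2(FPKM + 1), day 21 minus day 14, in WT (blue) and Mtr4-null oocytes (orange) for the 11 solute carrier genes that stood at least 2-fold apart between ages in WT, with dotted lines at 2-fold. Slc25a30 and Slc5a8 are lower by 2-fold or more in both genotypes, Slc5a8 in WT not with quantile normalization, while Slc30a6, Slc25a10, Slc6a15 and Slc5a12 are near 0 in Mtr4-null oocytes.

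Other transport genes with the same WT level were counted at day 21 beside the 14.9% of all genes that were higher and the 28.3% that were lower, with a median of -0.41. Of 14 P-type ion pumps, none was higher and 7 lower, with a median log2 difference of -1.02. Atp2c1, the Golgi calcium and manganese pump, stood at 88.3 and 96.1 FPKM in the WT groups, against 64.7 and 19.5 FPKM in the Mtr4-null ones at day 14 and day 21. Of 25 ABC transporters, 3 were higher and 11 lower, and Abcc4 stood at 16.8 FPKM (WT) and 4.198 FPKM (Mtr4-null). Of 20 vacuolar proton pump subunits, 1 was higher and 2 lower, and of 5 Slco organic anion carriers, 4 were lower. Aqp9, a channel for water and glycerol, was lower at both ages and stood at 13.7 and 23.5 FPKM in the WT groups, against 4.404 and 3.34 FPKM in the Mtr4-null ones, and Lrrc8e, a subunit of the volume-regulated anion channel, stood at 17.1 and 20.8 FPKM in the WT groups, against 22.3 and 7.64 FPKM in the Mtr4-null ones.

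All 170 members were matched in the GENCODE vM21 annotation. The median number of exons, counted in the longest protein-coding transcript, was 8 in the 20 members higher at day 21, 12 in the 41 lower ones and 10 in the 109 others. Across the 170 members Spearman's rho between exon number and the day 21 difference was -0.33, beside -0.23 across 9543 genes with the same WT level. These rho values are descriptions across genes, which share their libraries and are not independent replicates. The rho for exonic length was -0.09 in both sets. Of the members, 88 overlap another annotated gene, 75 of them on the opposite strand, and reads in the shared stretch may be counted for either gene. Such overlaps were present in 8 of the 20 higher, 18 of the 41 lower and 62 of the 109 other members.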

How the data were processed

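Poly(A) RNA of mouse oocytes was profiled with Smart-seq2 in 12 samples of 10 oocytes, 3 per genotype and age, with ERCC spike-in RNA in the lysis buffer, per the labels' protocols. TopHat2 2.1.1, Cufflinks 2.2.1 and the build mm9 are named, with no role or order, per the submitters' processing notes. The deposited table gives FPKM, averaged by the authors to 1 value per gene and group, so the depth of each library, replicate errors and p-values cannot be given. FPKM summed to 599453 and 603675 in WT and to 595721 and 649983 in Mtr4-null oocytes at day 14 and day 21. FPKM are relative to the RNA of a library, so a difference in RNA per oocyte would not show.

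Members were taken by symbol and by a mean WT FPKM of at least 1, and grouped into 10 substrate classes. Differences of log2(FPKM + 1) between 2 columns were counted at 2-fold, beside those of all 11160 symbols with the same WT level. The members and lists were chosen with earlier results of these data known. The roles of the Slc25 genes and the 4 symbols that are not carriers were listed after the values were seen. Genes are named by a rule: the 10 most abundant members, the largest differences of each comparison with at least 5 FPKM in the higher group (10 in each direction between genotypes, 5 between ages), the 4 most abundant and up to 6 genes 2-fold apart of each class, a list of textbook oocyte carriers, and those next to the threshold. That rule takes 91 members. Others were named, after their values were seen, to complete a family or class. Values of some single genes are not reported here; counts and medians include them.

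Exons, overlaps and neighbours came from GENCODE vM21 (GRCm38) and promoters from RefSeq (GRCm38.p6), matched by symbol. The authors' build differs, so no coordinate of theirs is used. Counting and differencing were tested on simulated data. The alternatives were a pseudocount of 0.1, median-of-ratios scaling, quantile normalization, a minimum mean WT FPKM of 5 and no filter on low values. Added after seeing the data were counts without the 4 symbols and without members that overlap another gene. Python 3.11.15, pandas 2.3.3 and numpy 2.4.6 were used.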

Additional observations from a re-analysis of the deposited data

How the results depend on the processing

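No count here has a test, so each depends on the rule of 2-fold, and the depth that limits it is unknown. No value of a named member changed sign while 2-fold apart. Of 182 genotype differences of named members, 172 kept their side of 2-fold with median-of-ratios scaling, 175 with quantile normalization and 173 with a pseudocount of 0.1. With that pseudocount 8 members were lower at day 14, 5 higher and 16 lower between WT ages, and 30 higher and 50 lower at day 21. Over all genes 3.50% were then lower at day 14, and 4.06% were higher and 5.99% lower between WT ages. At day 21, 16.9% of all genes were then higher and 33.3% lower. Median-of-ratios scaling gave 3 higher at day 14, and 11 higher and 21 lower between Mtr4-null ages. Quantile normalization gave 3 higher at day 14, and 12 higher and 24 lower between Mtr4-null ages. A minimum of 5 FPKM left 107 members, with 3 higher at day 14, 10 higher at day 21, 1 higher and 4 lower between WT ages and 2 higher between Mtr4-null ages. With no filter on low values, 14 of 355 were higher at day 14, 37 at day 21 and 18 between Mtr4-null ages. Without the 88 members that overlap another gene, chosen after seeing the data, 12 were higher and 23 lower at day 21, 5 lower between WT ages, and 3 higher and 21 lower between Mtr4-null ages. The shares over all genes were not recounted for these changed sets of members. Both the higher minimum and the overlap rule leave fewer genes to count, and no filter leaves more. For the other moved counts the cause was not tested. Leaving out each replicate was not run, since the table holds means. No paired analysis was possible because the columns are group means and carry no replicate number.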

Other observations

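The level set on WT oocytes leaves out carriers that were near 0 in WT and present in Mtr4-null oocytes. Of the 185 Slc symbols below the level, 4 and 8 stood at 1 FPKM or more in WT oocytes at day 14 and day 21, and 18 and 27 in Mtr4-null oocytes. At least 5 FPKM was reached by 1 of them in Mtr4-null oocytes at day 14 and by 7 at day 21. No WT column could reach it, because the WT mean of these symbols is under 1 FPKM. The low WT counts thus follow from the rule and are no comparison of genotypes. The share of all symbols below the level that reached these values was not counted. At day 21, 68 of the 185 were listed at 0 in Mtr4-null and 46 in WT oocytes, and over all 23235 symbols 6597 and 6011 were. Fewer libraries may lie behind that Mtr4-null column, and the part of this in the number of genes at 0 was not tested. These genes are given because their Mtr4-null values are high, which is a description and no test.

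Slc11a1 (NRAMP1), the metal carrier of phagosomes in macrophages, stood at 0.824 FPKM at day 14 and 0.657 FPKM at day 21 in WT, against 8.76 and 69.5 FPKM in the Mtr4-null groups. Slc1a7, a glutamate carrier of the retina, stood at 0.409 FPKM at day 14 and 0.577 FPKM at day 21 in WT, against 3.87 and 31.9 FPKM in the Mtr4-null groups, and Slc23a1 (SVCT1), the ascorbate carrier of epithelia, at 0.316 FPKM at day 14 and 0.351 FPKM at day 21 in WT, against 2.698 and 29.2 FPKM in the Mtr4-null groups. Each of these 3 was higher at both ages, and the last lies opposite to its relative Slc23a2, which was lower at day 21. At day 21 Slc22a15 stood at 0.204 FPKM (WT) and 14.3 FPKM (Mtr4-null), and Slc35e1 at 0.251 FPKM (WT) and 12.4 FPKM (Mtr4-null). Slc10a4 stood at 0.479 FPKM (WT) and 11.9 FPKM (Mtr4-null) at that age. The mitochondrial carrier Slc25a41 was listed at 0 in both WT columns and reached 1.64 and 6.89 FPKM in the Mtr4-null groups of day 14 and day 21. Of the markers of theca, stroma, endothelium and blood, the highest in Mtr4-null oocytes at day 21 was Pecam1 at 2.13 FPKM. That list was not made for macrophages, and whether other cells add to the Slc11a1 value was not tested.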
